A study of Mus musculus with 12 samples.

Results

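Ubiquitin ligase substrate adaptors of the SPSB, SOCS, ASB, KLHL, KCTD and F-box (FBXO, FBXL, FBXW) families were followed at the RNA level in primary mouse lung endothelial cells. Members were the protein-coding genes whose symbol starts with one of these family names and a number and whose FPKM (fragments scaled to transcript length and library size), summed over the transcripts of the gene, averaged at least 1 over the 12 libraries. These were 102 of the 165 genes of the families, out of 11378 genes tested and 23422 gene identifiers in all. The other 63 family genes lay below that level, 46 of them below 0.1 FPKM and 11 at 0 in every library.

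The 4 groups of 3 libraries each were cells of mice lacking MLK2 and MLK3 (MLK2-/-MLK3-/-, double knockout) in hypoxia and in normoxia, and cells of C57BL/6J wild type mice in hypoxia and in normoxia. Hypoxia was 1% oxygen for 90 min and normoxia 21% oxygen, and all cells were grown as monolayers in medium with serum, endothelial mitogen and heparin. MLK2 and MLK3 are mixed lineage kinases that act upstream of JNK, and the series was set up to find pathways downstream of this kinase family. The labels do not tell whether the libraries of a group are separate animals or cultures, and the background strain of the double knockout is not given in the sources used here. Each p therefore measures only the spread between these libraries, which may be technical.

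Cullin-RING ubiquitin ligases share a cullin scaffold and a RING subunit that brings the ubiquitin-charged enzyme, and they take their targets through exchangeable adaptors. SPSB, SOCS and ASB proteins carry a SOCS box that docks through elongins B and C on CUL5. KLHL proteins and many KCTD proteins bind CUL3 through a BTB domain, and F-box proteins bind CUL1 through SKP1. The adaptor best known in oxygen sensing, VHL, belongs to another family and works with elongins and CUL2.

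The libraries held an estimated 21100000 to 26000000 fragments, so that 1 FPKM corresponded to 21.1 to 26.0 fragments per kilobase of transcript. Pearson's r of log2 values over the tested genes was 0.9937 to 0.9955 within groups and 0.9831 to 0.9928 between groups, so no library stood apart. Map3k10, the gene of MLK2, had 1.34, 1.15 and 1.02 FPKM in the double knockout in hypoxia and 0.145, 0.169 and 0.131 FPKM in the double knockout in normoxia, against 19.1, 16.6 and 16.7 FPKM in wild type hypoxia and 18.9, 18.3 and 19.2 FPKM in wild type normoxia. Map3k11, the gene of MLK3, averaged 11.6 and 11.2 FPKM in the double knockout in hypoxia and normoxia, against 32.9 and 34.7 FPKM in wild type. Which parts of both genes were deleted is not stated in the labels. The summed level of 12 endothelial markers, 11 of them above the 1 FPKM floor, was 4276 to 4524 FPKM in every library. Emcn and Egfl7, at means of 1263 and 1428 FPKM, carried most of this sum. Single endothelial markers moved both ways, as given below with the markers of other cell types. All 12 targets of hypoxia-inducible factors on a list of such targets, among them Ankrd37, Bnip3 and Vegfa, rose in both genotypes, with a median log2 fold change of 2.30 in the double knockout and 2.47 in wild type. That list was written with earlier results of these data known, so its rise is a description and no independent check.

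In their overall level the adaptor genes were ordinary, with a median of 11.4 FPKM over the 12 libraries, against 12.7 FPKM for all tested genes, and 56 of the 102 reached 10 FPKM. FPKM is per length, so levels of genes can be set side by side. One gene stood far above the others. Klhl4, a BTB-kelch gene, had 912, 938 and 881 FPKM in the double knockout in hypoxia, 819.8, 862 and 891 FPKM in the double knockout in normoxia, 846, 839 and 902 FPKM in wild type hypoxia and 875, 802 and 883 FPKM in wild type normoxia. Its mean of 871 FPKM was the 128th highest of the 11378 tested genes, and its groups overlapped in all 4 comparisons of groups. Next came Kctd10, an adaptor for RhoB in human endothelial cells, at a mean of 101.5 FPKM, Klhl9 at 65.5 FPKM and Kctd20 at 63.4 FPKM. These levels used the same means that chose the members and are a description. At the floor, Asb4, described in embryonic endothelium, averaged 1.02 FPKM (0.586 to 1.36 FPKM over the libraries) and Asb1 averaged 1.29 FPKM, while Fbxl7 at 0.865 FPKM and Fbxo2 at 0.805 FPKM fell just outside.

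The share of each family above the floor varied. Of the SPSB genes 3 of 4 were members, of the SOCS genes 6 of 7, of the ASB genes 7 of 18, of the KLHL genes 23 of 37 and of the KCTD genes 15 of 22. Among F-box genes the members were 25 of 37 FBXO, 15 of 18 FBXL and 8 of 22 FBXW genes. Median levels were 11.2 FPKM for SPSB, 12.4 for SOCS, 4.59 for ASB, 9.06 for KLHL, 11.6 for KCTD, 14.9 for FBXO, 7.27 for FBXL and 17.2 for FBXW members.

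Hypoxia changed more adaptor genes downward than upward in both genotypes. A gene was called changed when limma's adjusted p (Benjamini-Hochberg over all 11378 tested genes) was under 0.05. In the double knockout 40 adaptor genes fell and 18 rose, where 19.6% of all tested genes fell and 19.6% rose. Among the 102 members these counts were 39.2% and 17.6%. In wild type 21 members (20.6%) fell and 11 (10.8%) rose, where 10.4% of all tested genes fell and 10.5% rose. In each genotype the share of members called lower stood above that of all tested genes, while the share called higher lay near it. The median log2 fold change of the members, on the scale of FPKM + 1, was -0.12 in the double knockout and -0.05 in wild type, against 0.01 and 0.00 for all tested genes. Without wild type hypoxia library 1 the wild type count of lower members was 11, and without library 2 it was 13, while 5.62% and 6.19% of all tested genes were then called lower.

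**Figure D1:**
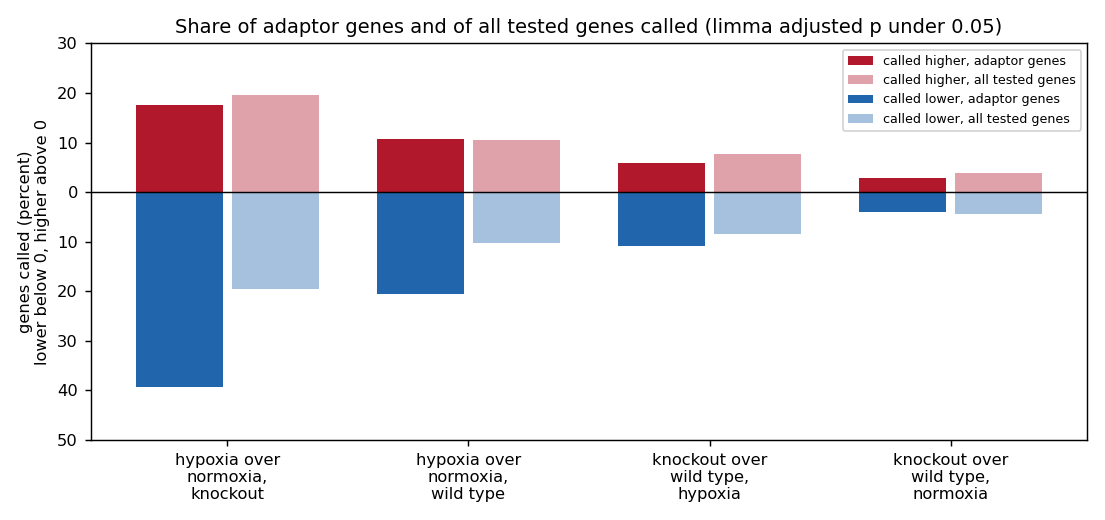
Percent of the 102 adaptor genes (dark bars) and of all 11378 tested genes (pale bars) called higher (red, above 0) or lower (blue, below 0) in each comparison, by limma's adjusted p under 0.05. Lower adaptor genes reach 39.2% in the double knockout and 20.6% in wild type under hypoxia, against 19.6% and 10.4% of all tested genes.

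Complete separation of the libraries gave the same picture without a model. In the double knockout all hypoxia libraries lay below all normoxia libraries for 48 members and above them for 21, where 24.6% and 25.6% of all tested genes did so. In wild type the counts were 30 members below and 16 above, where 19.4% and 18.8% of all tested genes did so.

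By family, the lower calls came from all 3 ligase classes, but not every family stood above the background. That background was 19.6% of all tested genes called lower in the double knockout and 10.4% in wild type. KCTD had 20.0% and 6.67% of its members lower, FBXW 12.5% and 0%, and FBXL in wild type 13.3%, near or below it. In the double knockout 2 of 3 SPSB, 2 of 6 SOCS and 4 of 7 ASB members fell, with 1 ASB member higher. Of the CUL3 adaptors 10 of 23 KLHL members fell and 2 rose, and 3 of 15 KCTD members fell and 3 rose. Among F-box members 10 of 25 FBXO fell and 7 rose, 8 of 15 FBXL fell and 2 rose, and 1 of 8 FBXW fell and 3 rose. In wild type the families gave 1 SPSB, 1 SOCS, 2 ASB, 7 KLHL, 1 KCTD, 7 FBXO and 2 FBXL members lower, and 2 KLHL, 2 KCTD, 5 FBXO, 1 FBXL and 1 FBXW members higher. No SPSB or SOCS member rose in either genotype by limma's adjusted p, and 1 of them, Socs2 in wild type, was higher with an unadjusted p under 0.05.

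**Figure D2:**
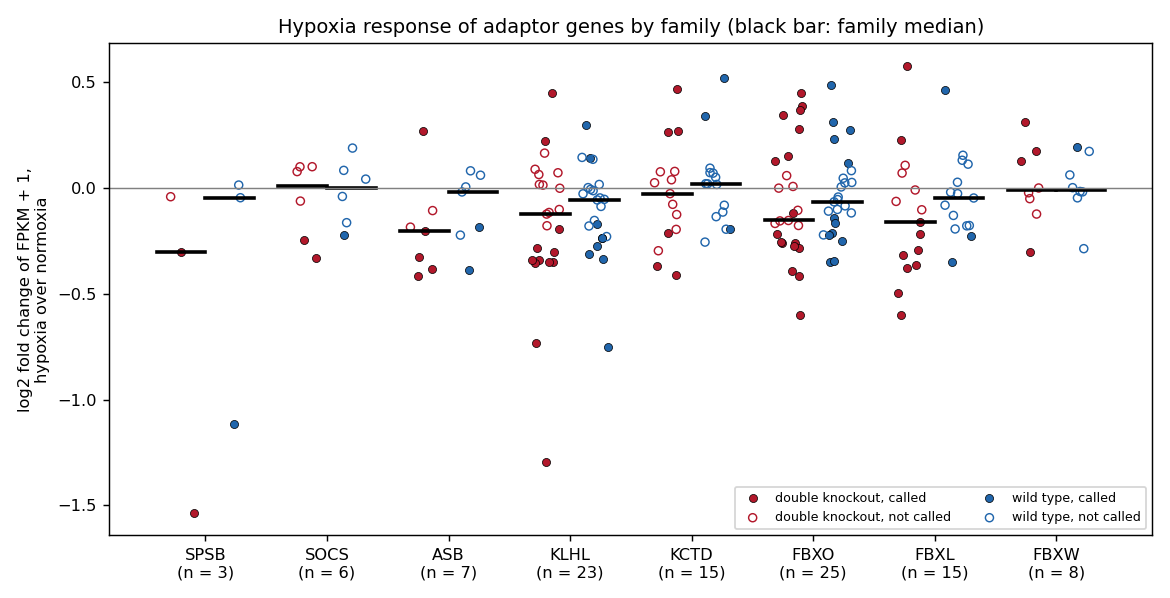
Log2 fold change of FPKM + 1, hypoxia over normoxia, for each member by family, in the double knockout (red, left of each pair) and in wild type (blue, right). Filled points were called by limma and black bars are family medians. Spsb2 and Klhl36 lie lowest, at -1.54 and -1.29 in the double knockout and -1.12 and -0.75 in wild type.

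The size of most responses was small. A log2 fold change beyond 0.5 in either direction was seen for 6 members in the double knockout and 3 in wild type. The share of all tested genes beyond 0.5 was not counted, so this describes the members only. On this scale changes of genes at low levels are understated. Where a pair of log2 fold changes is given for a gene under hypoxia without naming the genotypes, the first is that of the double knockout and the other that of wild type.

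Spsb2 (ENSMUSG00000038451, GRCm38 chromosome 6, 124808661 to 124810619) encodes a SPRY-domain and SOCS-box adaptor best known for sending inducible nitric oxide synthase to degradation. Its level was 4.75, 5.63 and 5.43 FPKM in the double knockout in hypoxia, against 16.1, 16.8 and 18.7 FPKM in the double knockout in normoxia. In wild type it was 5.72, 7.52 and 6.84 FPKM in hypoxia, against 16.1, 15.3 and 15.5 FPKM in normoxia. All 6 hypoxia libraries lay below 8 FPKM and all 6 normoxia libraries above 15 FPKM. The log2 fold change was -1.54 ± 0.09 (SE) in the double knockout (limma adjusted p = 3.15e-07) and -1.12 ± 0.09 in wild type (adjusted p = 6.63e-06).

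The fall of Spsb2 showed in its main transcript. ENSMUST00000052727, which carried 79.5% of the gene's level, averaged 3.52 FPKM in hypoxia and 14.5 FPKM in normoxia in the double knockout, and 4.54 FPKM in hypoxia and 13.0 FPKM in normoxia in wild type. The next transcript, ENSMUST00000112473, stayed between 1.44 and 1.65 FPKM in the means of all 4 groups, and differences between transcripts were not tested. The 3' end of Spsb2 overlaps the 3' end of Tpi1, a glycolytic gene on the other strand, by 34 bases. Tpi1 averaged 354 FPKM and rose by 1.29 in the double knockout and 1.34 in wild type on the log2 scale. Whether the counting used strand is not given in the sources used here, so fragments in those 34 bases cannot be told apart.

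The other SPSB genes behaved differently from Spsb2 in size. Spsb3, which targets the transcription factor SNAIL in human cells, had 9.60, 11.3 and 10.4 FPKM in the double knockout in hypoxia, against 12.3, 13.6 and 13.6 FPKM in normoxia. This fall (-0.30 ± 0.08, adjusted p = 0.00937) was not called when its main transcript alone was tested (adjusted p = 0.722). Spsb3 overlaps Eme2, a gene on the other strand with a mean of 10.7 FPKM, by 3667 bases. Eme2 had log2 fold changes of -0.11 and -0.10 that did not pass. In wild type Spsb3 had 10.6, 11.1 and 12.2 FPKM in hypoxia and 13.0, 10.7 and 11.5 FPKM in normoxia, with overlapping groups (adjusted p = 0.717). Spsb1, the close relative of Spsb2, averaged 3.38 ± 0.328 FPKM in hypoxia and 3.54 ± 0.736 FPKM in normoxia in the double knockout and 2.86 ± 0.645 and 2.80 ± 0.250 FPKM in wild type (SD, n = 3 each), and its groups overlapped. Spsb4 was below the floor, at a mean of 0.0502 FPKM.

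Promoters were read for the members with the largest changes called alike in both genotypes, up to 3 in each direction, because hypoxia-inducible factors bind the core letters ACGTG or GCGTG. The 250 bases before the RefSeq start (GRCm38.p6) are given 5′ to 3′ on the strand of the gene, with matches in capitals. Both strands were searched, so that ACGTG also appears as its reverse complement CACGT and GCGTG as its reverse complement CACGC, and a palindromic CACGTG would match ACGTG on both strands. Where the table holds several promoters, as the 2 each for Spsb2 and Fbxo17, only the one nearest the gene's start in GENCODE is printed. The Spsb2 window lies mostly inside the gene as GENCODE places it, since the RefSeq start lies downstream of the outermost GENCODE start. Kctd9 and Klhl8 were also chosen by this rule, but their windows are not printed, so the matches given below cover only the windows shown.
Fbxl22 (higher), chr9:66514594-66514843, minus strand: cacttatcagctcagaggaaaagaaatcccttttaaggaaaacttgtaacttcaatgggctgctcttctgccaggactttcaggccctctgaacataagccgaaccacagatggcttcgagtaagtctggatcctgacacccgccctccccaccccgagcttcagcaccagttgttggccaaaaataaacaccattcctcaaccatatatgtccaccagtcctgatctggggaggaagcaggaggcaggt
Fbxo17 (higher), chr7:28716540-28716789, plus strand: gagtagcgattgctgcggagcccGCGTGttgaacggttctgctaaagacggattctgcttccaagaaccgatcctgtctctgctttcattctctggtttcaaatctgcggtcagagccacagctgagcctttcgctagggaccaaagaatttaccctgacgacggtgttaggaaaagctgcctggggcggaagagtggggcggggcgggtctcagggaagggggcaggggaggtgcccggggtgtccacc
Spsb2 (lower), chr6:124808635-124808884, plus strand: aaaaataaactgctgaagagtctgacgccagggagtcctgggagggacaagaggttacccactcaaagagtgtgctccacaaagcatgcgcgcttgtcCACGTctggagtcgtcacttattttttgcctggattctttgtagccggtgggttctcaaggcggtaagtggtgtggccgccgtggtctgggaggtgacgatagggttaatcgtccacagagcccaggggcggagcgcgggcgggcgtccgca
Klhl36 (lower), chr8:119862055-119862304, plus strand: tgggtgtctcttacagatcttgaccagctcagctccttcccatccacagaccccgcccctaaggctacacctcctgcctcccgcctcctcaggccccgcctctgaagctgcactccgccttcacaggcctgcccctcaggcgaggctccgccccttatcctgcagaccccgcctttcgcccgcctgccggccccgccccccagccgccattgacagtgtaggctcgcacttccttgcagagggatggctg
Spsb2 held 1 match, whose first base lies 152 bases before the start, and Fbxo17 held 1, at 227 bases before the start. The windows of Fbxl22 and Klhl36 held none, which says only that these letters are not in these windows.

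Across the table, ACGTG was found in 16.6% and GCGTG in 28.2% of 32851 promoters, and either in 38.6%. Of 113 promoters of 79 members, 22.1% held ACGTG, 44.2% GCGTG and 55.8% either. Members also had a higher GC content in this window, with a median of 60.4% against 52.4%, and both motifs hold CG. Among promoters of members called higher in both genotypes, 1 of 8 held ACGTG and 4 of 8 GCGTG. Among those called lower in both, 6 of 17 held ACGTG and 7 of 17 GCGTG.

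SOCS proteins are feedback inhibitors of cytokine receptors, and most of them were close to level under hypoxia. Socs4 fell in both genotypes. It had 4.96, 4.45 and 4.69 FPKM in hypoxia, against 5.58, 5.90 and 5.82 FPKM in normoxia, in the double knockout and 4.88, 5.01 and 4.92 FPKM in hypoxia, against 5.74, 6.08 and 5.98 FPKM in normoxia, in wild type. The groups did not overlap, and the log2 fold changes were -0.25 ± 0.05 (limma adjusted p = 0.00299) and -0.22 ± 0.05 (adjusted p = 0.0117). Socs6, which binds the receptor KIT, was the most abundant SOCS gene. It fell to 17.96, 16.4 and 18.1 FPKM in hypoxia, against 21.3, 21.9 and 23.6 FPKM in normoxia, in the double knockout (adjusted p = 0.00518). In wild type it had 17.6, 17.7 and 22.1 FPKM in hypoxia and 20.8, 21.5 and 22.0 FPKM in normoxia, and hypoxia library 3 reached the normoxia values (adjusted p = 0.155). Without that library the wild type fall passed (log2 fold change -0.27, limma adjusted p = 0.00796).

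The classic cytokine-induced members did not pass the test. Socs3, the feedback inhibitor of gp130 receptors, averaged 15.3 ± 1.23 FPKM in hypoxia and 16.0 ± 0.896 FPKM in normoxia in the double knockout, and 13.9 ± 0.824 and 14.4 ± 1.22 FPKM in wild type. Socs2, which restrains growth hormone signalling, averaged 15.6 ± 0.768 and 14.8 ± 1.08 FPKM in the double knockout and 16.6 ± 0.972 and 14.5 ± 1.19 FPKM in wild type (adjusted p = 0.412 and 0.0751). Socs5 and Socs7 had log2 fold changes of 0.10 and 0.10 in the double knockout and 0.04 and 0.08 in wild type. Socs1 lay below the floor, at a mean of 0.525 FPKM. Of 27 tested JAK-STAT genes outside the family, 8 rose and 7 fell in the double knockout, and 2 rose and 4 fell in wild type, where 19.6% of all tested genes rose and 19.6% fell in the double knockout and 10.5% rose and 10.4% fell in wild type. Lifr, the receptor of leukaemia inhibitory factor, rose by 0.49 and 0.23, and Ptpn2, a JAK and STAT phosphatase, rose by 0.51 and 0.31 in the double knockout and wild type. The kinase gene Tyk2 (-0.37 and -0.29) and the interferon gamma receptor gene Ifngr2 (-0.31 and -0.14) fell in both.

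Among ASB genes, which pair ankyrin repeats with a SOCS box, Asb1 and Asb7 fell in both genotypes. Asb1 had 0.853, 0.880 and 0.792 FPKM in hypoxia, against 1.26, 1.34 and 1.82 FPKM in normoxia, in the double knockout and 1.04, 1.08 and 1.16 FPKM in hypoxia, against 1.96, 1.68 and 1.59 FPKM in normoxia, in wild type. No library of either hypoxia group reached its normoxia group, and the double knockout call was lost with the main transcript alone (adjusted p = 0.0531). The wild type call was lost without hypoxia library 1 (adjusted p = 0.0503) or normoxia library 1 (adjusted p = 0.0542). For Asb7 the log2 fold changes were -0.33 ± 0.06 in the double knockout (adjusted p = 0.00106) and -0.19 ± 0.06 in wild type (adjusted p = 0.0444), and the wild type call was lost under 16 of 21 alternatives. Asb8 fell in the double knockout (-0.38 ± 0.08, adjusted p = 0.00200), at 9.31 ± 0.352 FPKM in hypoxia and 12.5 ± 1.79 FPKM in normoxia, but not with its main transcript alone (adjusted p = 0.158), and averaged 11.8 ± 0.363 and 11.8 ± 0.311 FPKM in wild type. Asb4 rose in the double knockout to 1.28, 0.862 and 0.992 FPKM in hypoxia, against 0.787, 0.586 and 0.703 FPKM in normoxia (adjusted p = 0.0382). That call sits at the floor of 1 FPKM and was lost under 7 of 21 alternatives. The most abundant ASB gene, Asb3, had log2 fold changes of -0.19 and -0.22 that did not pass.

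Klhl36 (ENSMUSG00000031828, chromosome 8, 119862266 to 119876995) was the BTB-kelch gene with the largest fall. It had 3.18, 3.96 and 3.54 FPKM in the double knockout in hypoxia, against 9.93, 10.2 and 10.3 FPKM in the double knockout in normoxia. Wild type cells had 4.48, 5.18 and 5.61 FPKM in hypoxia, against 9.51, 8.23 and 10.0 FPKM in normoxia. Hypoxia libraries of both genotypes lay below all normoxia libraries, and the lowest values were those of the double knockout in hypoxia. The log2 fold change was -1.29 ± 0.09 in the double knockout (limma adjusted p = 1.11e-06) and -0.75 ± 0.09 in wild type (adjusted p = 0.000174).

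Klhl8 had the same order of groups. It had 5.94, 6.85 and 6.21 FPKM in hypoxia, against 11.2, 10.8 and 11.6 FPKM in normoxia, in the double knockout (-0.73 ± 0.07, adjusted p = 2.1e-05). In wild type it had 6.99, 7.49 and 8.79 FPKM in hypoxia, against 9.79, 9.52 and 10.2 FPKM in normoxia (-0.31 ± 0.07, adjusted p = 0.0123). Klhl24, which targets keratin 14 in skin, showed a small fall with little spread, at 40.4, 41.4 and 40.7 FPKM in hypoxia, against 50.0, 50.2 and 49.7 FPKM in normoxia, in the double knockout. Its wild type values were 41.1, 40.8 and 42.0 FPKM in hypoxia, against 46.6, 46.9 and 46.5 FPKM in normoxia. Klhl12, which targets the coat protein SEC31, Klhl20, which targets PML in human cells, Klhl25, which targets 4E-BP1, and Klhl42, which targets katanin, also fell in both genotypes. Their log2 fold changes were -0.20, -0.35, -0.35 and -0.30 in the double knockout and -0.27, -0.34, -0.24 and -0.24 in wild type.

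Klhl21, which acts on Aurora B at mitosis, was the KLHL gene that rose in both genotypes. It had 15.2, 17.0 and 15.8 FPKM in hypoxia, against 11.0, 11.7 and 11.7 FPKM in normoxia, in the double knockout and 13.0, 14.8 and 12.4 FPKM in hypoxia, against 11.2, 10.6 and 10.2 FPKM in normoxia, in wild type (limma adjusted p = 0.000251 and 0.00849). Klhl5 rose in the double knockout alone by the test (0.22 ± 0.05, adjusted p = 0.00428), with 0.13 ± 0.05 in wild type (adjusted p = 0.0772). Klhl2, an adaptor for WNK kinases, rose in wild type alone by the test (0.14 ± 0.04, adjusted p = 0.0202), with 0.02 ± 0.04 in the double knockout. The difference between the responses of Klhl5 and of Klhl2 did not pass (adjusted p = 0.593 and 0.276).

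**Figure D3:**
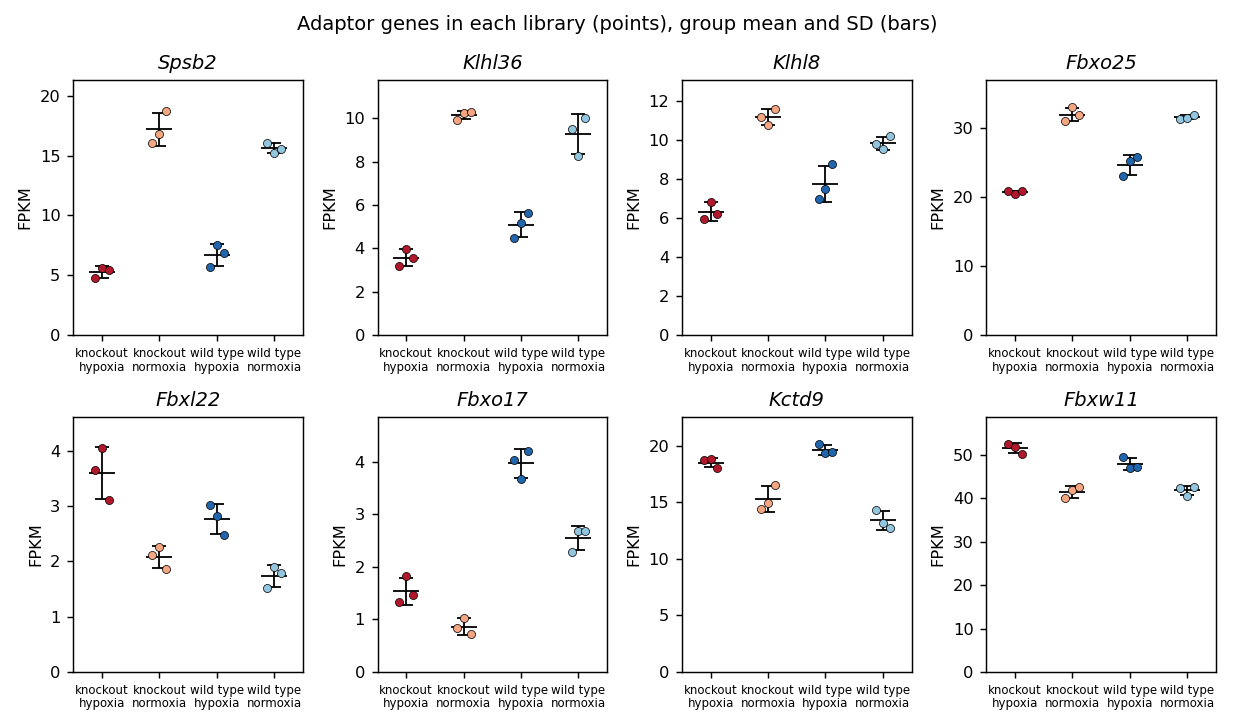
FPKM of 8 members in each library (points), with the group mean and SD (bars, n = 3), from left to right in double knockout hypoxia, double knockout normoxia, wild type hypoxia and wild type normoxia. Spsb2, Klhl36, Klhl8 and Fbxo25 are lower in hypoxia and Fbxl22, Fbxo17, Kctd9 and Fbxw11 higher, and only Fbxo17 of the 8 is lower in the double knockout at both oxygen levels by the test.

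KCTD genes moved both ways. Kctd9 rose to 18.7, 18.8 and 18.02 FPKM in hypoxia, against 14.4, 14.9 and 16.6 FPKM in normoxia, in the double knockout and to 20.1, 19.4 and 19.4 FPKM in hypoxia, against 14.3, 13.2 and 12.7 FPKM in normoxia, in wild type. Hypoxia and normoxia did not overlap in either genotype, and the log2 fold change was 0.26 ± 0.06 in the double knockout and 0.52 ± 0.06 in wild type (limma adjusted p = 0.00323 and 0.000100). Kctd17, which acts in primary cilium formation in human cells, rose by 0.27 and 0.34, but neither call held for its main transcript alone (adjusted p = 0.433 and 0.227). Kctd18 fell in both genotypes (-0.37 and -0.20), the wild type call being lost under 9 of 22 alternatives. Kctd13, an adaptor for RhoA, fell in the double knockout (-0.41 ± 0.08, adjusted p = 0.00190) and had a log2 fold change of -0.20 ± 0.08 in wild type (adjusted p = 0.112). Kctd12, an auxiliary subunit of GABA-B receptors in neurons, fell in the double knockout (-0.22, adjusted p = 0.0124). Kctd10, the most abundant KCTD gene, had log2 fold changes of 0.02 and 0.05 that did not pass.

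In the largest group, FBXO, Fbxo25 gave the clearest fall. Fbxo25 is the closest relative of the muscle atrophy gene Fbxo32. Its level was 20.8, 20.4 and 20.8 FPKM in the double knockout in hypoxia, against 30.9, 32.9 and 31.8 FPKM in the double knockout in normoxia. In wild type it was 23.0, 25.1 and 25.8 FPKM in hypoxia, against 31.2, 31.4 and 31.8 FPKM in normoxia. The libraries of a group lay close together, and the log2 fold changes were -0.60 ± 0.04 (limma adjusted p = 2.01e-06) and -0.34 ± 0.04 (adjusted p = 0.000328). Fbxo18, now named Fbh1, a DNA helicase with an F-box, had 29.0, 28.8 and 28.5 FPKM in hypoxia, against 38.4, 39.8 and 38.2 FPKM in normoxia, in the double knockout and 26.9, 26.9 and 30.4 FPKM in hypoxia, against 37.3, 33.9 and 37.0 FPKM in normoxia, in wild type. Fbxo45, known from synapse formation, Fbxo21, Fbxo22 and Fbxo3 also fell in both genotypes, with log2 fold changes of -0.26, -0.29, -0.26 and -0.22 in the double knockout and -0.22, -0.17, -0.22 and -0.14 in wild type.

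The 5 FBXO genes that rose in both genotypes were Fbxo17, Fbxo28, Fbxo32, Fbxo34 and Fbxo42. Fbxo32 encodes atrogin-1, the F-box protein of muscle wasting. It rose to 19.9, 20.1 and 19.7 FPKM in hypoxia, against 15.7, 15.3 and 15.4 FPKM in normoxia, in the double knockout and to 14.8, 15.5 and 14.2 FPKM in hypoxia, against 11.3, 12.8 and 12.3 FPKM in normoxia, in wild type. Groups did not overlap between oxygen levels of a genotype (limma adjusted p = 0.000205 and 0.00261). Fbxo17, of the F-box group that binds glycoproteins, had log2 fold changes of 0.45 ± 0.10 and 0.49 ± 0.10. Fbxo28 rose by 0.28 and 0.12, and Fbxo42, which binds p53, by 0.37 and 0.23. Fbxo34 rose by 0.39 and 0.31, but its main transcript alone gave no call (adjusted p = 0.46 and 0.0712). Fbxo6, the most abundant FBXO gene, had -0.16 and -0.11 and did not pass.

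Of the leucine-rich repeat F-box genes, Fbxl22 rose and Fbxl4 and Fbxl19 fell in both genotypes. Fbxl22, an adaptor of the cardiac Z-disc, had 3.65, 4.04 and 3.12 FPKM in hypoxia, against 2.12, 2.26 and 1.86 FPKM in normoxia, in the double knockout and 3.02, 2.82 and 2.48 FPKM in hypoxia, against 1.52, 1.89 and 1.80 FPKM in normoxia, in wild type. Its log2 fold changes, 0.58 ± 0.09 and 0.46 ± 0.09, were the largest positive and the third largest positive among the members of each comparison (limma adjusted p = 0.000544 and 0.00561). Fbxl4, a mitochondrial protein that restrains the mitophagy receptors BNIP3 and NIX in human cells, had 6.17, 5.97 and 5.62 FPKM in hypoxia, against 7.82, 9.27 and 9.27 FPKM in normoxia, in the double knockout and 6.60, 6.70 and 7.61 FPKM in hypoxia, against 9.20, 8.99 and 9.27 FPKM in normoxia, in wild type. Both separations were complete, with log2 fold changes of -0.50 ± 0.07 and -0.35 ± 0.07 (adjusted p = 0.000206 and 0.00518). Bnip3 itself, on the list of hypoxia-inducible factor targets, rose by 3.00 and 3.05 on the log2 scale. Fbxl19 had log2 fold changes of -0.32 and -0.23, the wild type call being lost under 7 of 22 alternatives. Fbxl8 and Fbxl20 fell in the double knockout (-0.60 ± 0.09 and -0.29 ± 0.04), with -0.18 ± 0.09 and -0.08 ± 0.04 in wild type, where neither passed. Fbxl17, which removes wrongly paired BTB proteins, rose in the double knockout (0.22 ± 0.06, adjusted p = 0.00727). The iron sensor Fbxl5 had log2 fold changes of -0.01 and -0.02 and did not pass.

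Among the WD40 F-box genes, Fbxw11, one of the pair of beta-TrCP genes that recognise phosphorylated beta-catenin and I-kappa-B, rose in both genotypes. It had 52.5, 51.9 and 50.2 FPKM in hypoxia, against 39.9, 41.8 and 42.5 FPKM in normoxia, in the double knockout and 49.4, 46.8 and 47.2 FPKM in hypoxia, against 42.3, 40.5 and 42.5 FPKM in normoxia, in wild type. The groups did not overlap (limma adjusted p = 7.56e-05 and 0.00482). Fbxw7, the adaptor for cyclin E, MYC and Notch, rose in the double knockout (0.17, adjusted p = 0.0226), as did Fbxw8, which works with CUL7 (0.13, adjusted p = 0.0214). Their wild type log2 fold changes were 0.00 and 0.06. Fbxw17 fell in the double knockout (-0.30, adjusted p = 0.0482), a call lost under 15 of 22 alternatives.

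Fbxo5 fell in wild type alone by the test (-0.25), with -0.002 in the double knockout, and the difference between its responses did not pass. The other remaining adaptor genes called in hypoxia passed in the double knockout. Lower there were Asb6, an adaptor for the insulin receptor partner APS, Klhl22, Klhl26, Klhl28, Fbxl6, Fbxl12, Fbxl15, Fbxl18, Fbxo9, Fbxo10, Fbxo38 and Fbxo46, with log2 fold changes of -0.39 (Fbxo46) to -0.12 (Fbxo38). In wild type they ran from -0.22 (Fbxo46) to 0.11 (Fbxl15). Fbxo4, an adaptor for cyclin D1, and Fbxo30 were higher in the double knockout by 0.13 and 0.15. The 42 members called in neither genotype had log2 fold changes of -0.30 (Kctd21) to 0.16 (Klhl15) in the double knockout and -0.26 (Kctd21) to 0.19 (Socs2) in wild type.

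Other parts of the ligases were counted from lists of their genes, to be read against the 19.6% of all tested genes called in each direction in the double knockout and the 10.5% higher and 10.4% lower in wild type. Of 14 scaffold and linker genes 4 rose in the double knockout and 2 in wild type by limma's adjusted p, and the others did not pass. Cul5, the scaffold of the SOCS-box families, rose by 0.27 and 0.14, Tceb1, the elongin C gene, by 0.32 and 0.21, and Cul3 by 0.27 in the double knockout. Of 27 neddylation and exchange genes 8 rose and 4 fell in the double knockout and 2 rose in wild type. Arih2, a ligase that works on neddylated CUL5, rose by 0.60 and 0.43, while Senp8 (-0.49) and Nae1 (-0.31), which process and activate NEDD8, fell in the double knockout.

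Substrate receptors outside the families were counted in the same way, against the same 19.6% each way in the double knockout and 10.5% higher and 10.4% lower in wild type. Of 25 other CUL3 adaptors 11 fell and 6 rose in the double knockout, and 5 fell and 5 rose in wild type. Btbd6 (-0.52 and -0.30), Ipp (-0.51 and -0.44) and Enc1 (-0.30 and -0.27) fell in both genotypes, and Ivns1abp (-0.33) in the double knockout. Btbd3 (0.63 and 0.35), Tnfaip1 (0.44 and 0.25) and Kbtbd11 (0.41 and 0.69) rose in both. Of 18 other CUL2 and CUL5 receptors 3 rose and 5 fell in the double knockout and 2 rose and 2 fell in wild type. Vhl, the receptor for hydroxylated hypoxia-inducible factors, rose to 29.6 ± 0.972 FPKM in hypoxia, against 19.1 ± 0.754 FPKM in normoxia, in the double knockout and to 27.8 ± 0.596 FPKM in hypoxia, against 17.7 ± 0.389 FPKM in normoxia, in wild type (SD, n = 3 each, log2 fold changes 0.61 and 0.62). Wsb1, a SOCS-box adaptor that acts on VHL in human cells, rose by 0.58 and 0.37, and Pcmtd1 and Pcmtd2 fell in both. Of 5 other CUL1 receptors Kdm2a rose in both (0.48 and 0.37) and Skp2 fell in wild type (-0.37). Of 21 CUL4 receptors 3 rose and 2 fell in the double knockout, and 2 rose in wild type, Dcaf13 (0.27 and 0.13) and Dcaf6 (0.32 and 0.16) among those that rose in both.

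The responses of the 2 genotypes, which share no library, ran together. Of the members 20 fell in both and 10 rose in both, where 8.3% and 8.48% of all tested genes did so. These were 50.0% of the double knockout's lower calls and 95.2% of wild type's, and 55.6% and 90.9% of the higher calls. Over all tested genes the same shares were 42.2% and 80.1% of the lower calls and 43.2% and 81.0% of the higher calls. The 2 wild type calls without one in the double knockout were Fbxo5 and Klhl2, and no member was called in opposite directions, as 11 of all tested genes were. Across the 102 members the log2 fold changes had a Pearson's r of 0.867, against 0.730 over all tested genes, as a description over genes that are not independent. The sign was shared by 84 members, and the share over all tested genes was not counted.

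**Figure D4:**
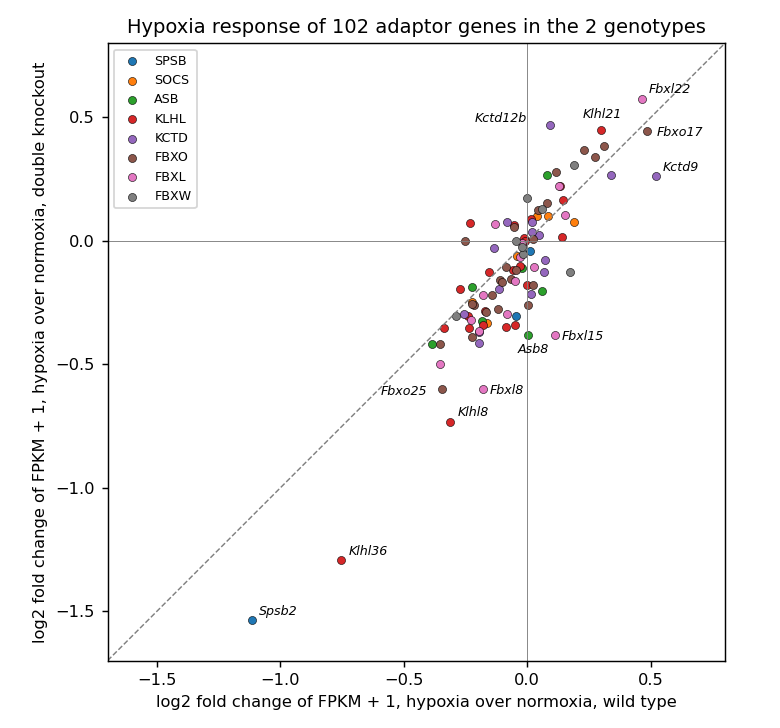
Log2 fold change of FPKM + 1, hypoxia over normoxia, of each member in the double knockout (vertical axis) and in wild type (horizontal axis), coloured by family, with the dashed line where both are equal. Spsb2, Klhl36 and Klhl8 lie below the line, Kctd12b above it, and Kctd9 right of it.

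The difference between the responses was tested directly and passed for 1 member, Kctd12b (24 of 102 members and 1820 of 11378 tested genes had an unadjusted p under 0.05), where 0.0703% of all tested genes were called higher and 0.123% lower. Kctd12b (ENSMUSG00000041633, chromosome X, 153685154 to 153696391), a relative of the GABA-B receptor subunit Kctd12, had 32.5, 31.6 and 31.2 FPKM in the double knockout in hypoxia, against 22.6, 22.8 and 22.7 FPKM in the double knockout in normoxia. Wild type cells had 21.9, 21.4 and 21.4 FPKM in hypoxia, against 19.6, 20.0 and 21.0 FPKM in normoxia. All 3 double knockout hypoxia libraries lay above every other library. The hypoxia log2 fold change was 0.47 ± 0.04 in the double knockout (adjusted p = 3.16e-06) and 0.09 ± 0.04 in wild type (adjusted p = 0.0911), and their difference was 0.38 ± 0.05 (limma adjusted p = 0.0347). This last call was lost under 10 of 21 alternatives, whose adjusted p ran from 0.0154 to 0.121. It was lost with the replicate number as a block (adjusted p = 0.0793), with the main transcript alone (adjusted p = 0.0573) and on leaving out any 1 of 8 libraries, namely libraries 1 and 3 of the double knockout in hypoxia, all 3 in normoxia, wild type hypoxia library 2 and wild type normoxia libraries 2 and 3. Both of its transcripts were highest in the double knockout in hypoxia, at means of 22.0 and 9.72 FPKM, against 16.1 and 6.57 FPKM in the double knockout in normoxia. The next members by p were Klhl36 (-0.54 ± 0.12, adjusted p = 0.0831), Fbxo25 (-0.26 ± 0.06, adjusted p = 0.0913) and Klhl8 (-0.42 ± 0.11, adjusted p = 0.0975), all with a larger fall in the double knockout that did not pass.

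Between genotypes fewer adaptor genes differed. In hypoxia 6 members were higher and 11 lower in the double knockout, where 7.68% and 8.42% of all tested genes were. Scaling libraries to equal medians gave 9 higher and 9 lower, and quantile normalization gave 8 higher and 7 lower. The count of lower members was 5 without double knockout hypoxia library 1 and 6 without its library 3, and 6 without wild type hypoxia library 2 or library 3. In normoxia 3 members were higher and 4 lower in the double knockout, where 3.84% and 4.32% of all tested genes were. The count of higher members was 1 without double knockout normoxia library 2 or wild type normoxia library 2, and the count of lower members was 2 without double knockout normoxia library 1 or 3 or wild type normoxia library 3. Shares called by limma this close to the background are no result about the members as a group. All hypoxia libraries of the double knockout lay above those of wild type for 17 members and below them for 24, where 17.4% and 18.4% of all tested genes did so. In normoxia the counts were 20 above and 8 below of the 102 members, where 11.6% and 14.1% of all tested genes did so. The limma calls in normoxia, 3 higher and 4 lower, did not show this split. The separation counts are a description, and the cause of the split was not tested.

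Of the 11 endothelial markers above the floor, 3 were called higher and 1 lower in the double knockout in hypoxia. The lower one was Cldn5 (log2 fold change -0.55, limma adjusted p = 0.000785). In normoxia 1 was called higher and 0 lower. The shares of all tested genes were 7.68% and 8.42% in hypoxia and 3.84% and 4.32% in normoxia. Some markers of other cell types also differed with genotype. The summed level of 8 leukocyte markers was 59.8 to 67.0 FPKM in double knockout hypoxia and 61.6 to 73.1 FPKM in double knockout normoxia, against 27.4 to 28.9 FPKM in wild type hypoxia and 20.2 to 28.9 FPKM in wild type normoxia. Most of it was Lyz2, at means of 59.6 and 62.1 FPKM in the double knockout in hypoxia and normoxia and 24.5 and 21.4 FPKM in wild type, and of the 8 markers 2 passed the floor, with Itgam and Cd3e below 0.1 FPKM. The other of these, Cd68, had log2 fold changes between genotypes of 0.22 in hypoxia and -0.12 in normoxia and did not pass (limma adjusted p = 0.225 and 0.614). Summed markers of smooth muscle and pericytes, of which Acta2 alone passed the floor and Myh11, Des, Rgs5 and Cspg4 were below 0.1 FPKM, were 6.20 to 6.97 FPKM in double knockout hypoxia and 5.06 to 5.90 FPKM in double knockout normoxia, against 3.32 to 4.54 FPKM in wild type hypoxia and 2.43 to 4.05 FPKM in wild type normoxia. For fibroblasts, with Col3a1 and Dcn above the floor, the sums were 4.38 to 5.01 FPKM in double knockout hypoxia and 6.03 to 6.41 FPKM in double knockout normoxia, against 2.00 to 2.97 FPKM in wild type hypoxia and 2.47 to 3.26 FPKM in wild type normoxia. Col3a1 fell under hypoxia in the double knockout (log2 fold change -0.90, limma adjusted p = 0.000920), whereas Dcn did not pass there (0.03, adjusted p = 0.817). The 4 lymphatic endothelial markers summed to 405 to 445 FPKM in double knockout hypoxia and 372 to 431 FPKM in double knockout normoxia, against 519 to 593 FPKM in wild type hypoxia and 482 to 494 FPKM in wild type normoxia. Lyve1 carried most of this sum and was lower in the double knockout at both oxygen levels (log2 fold changes of -0.56 in hypoxia and -0.40 in normoxia), whereas Pdpn was higher in normoxia (log2 fold change 0.24, adjusted p = 0.00700) and Flt4 did not pass at either. Prox1 was lower in the double knockout in hypoxia (-0.34, limma adjusted p = 0.0195) and did not pass in normoxia. Between oxygen levels, Prox1 (0.43 and 0.52) and Flt4 (0.29 and 0.29) were called higher under hypoxia in both genotypes. Pdpn was called higher in wild type alone (0.15), and Lyve1 in neither genotype. Under hypoxia 5 of the 11 endothelial markers were called higher and 2 lower in the double knockout. In wild type 2 were called higher and 1 lower. The shares of all tested genes were 19.6% each way in the double knockout and 10.5% and 10.4% in wild type. Flt1 (0.46 and 0.25) and Erg (0.28 and 0.11) rose in both genotypes and Kdr (-0.24 and -0.21) fell in both. Cldn5 fell in the double knockout (-0.58) and did not pass in wild type. Mesothelial markers summed to at most 0.105 FPKM. Epithelial markers summed to 3.50 to 4.01 FPKM in double knockout hypoxia, 1.73 to 1.89 FPKM in double knockout normoxia, 2.87 to 3.10 FPKM in wild type hypoxia and 1.43 to 1.78 FPKM in wild type normoxia, with Epcam, Cdh1 and Sftpc below 0.1 FPKM. Most of this sum was Ager, the only epithelial marker above the floor. Ager averaged 2.74 FPKM in hypoxia and 1.146 FPKM in normoxia in the double knockout, and 2.44 and 1.015 FPKM in wild type. It was called higher under hypoxia in both genotypes (log2 fold changes of 0.80 and 0.77). The endothelial sum was 4463 to 4524 FPKM in wild type hypoxia and 4276 to 4391 FPKM in wild type normoxia. In the double knockout it was 4333 to 4489 FPKM in hypoxia and 4302 to 4410 FPKM in normoxia. Hypoxia and normoxia thus separated in both genotypes for the epithelial sum and in the double knockout for the smooth muscle and fibroblast sums. In wild type they separated for the lymphatic and endothelial sums. The part of these cells in any adaptor result was not tested, and in bulk samples fewer cells of a type and less RNA per cell cannot be told apart.

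Fbxo17 (ENSMUSG00000030598, chromosome 7, 28716804 to 28738144) was the member with the largest genotype difference. It had 1.33, 1.83 and 1.46 FPKM in the double knockout and 4.03, 3.67 and 4.20 FPKM in wild type in hypoxia. In normoxia it had 0.838, 1.03 and 0.714 FPKM in the double knockout and 2.28, 2.69 and 2.68 FPKM in wild type. Every double knockout library lay below every wild type library, with log2 fold changes of -0.97 ± 0.10 in hypoxia (limma adjusted p = 5.58e-05) and -0.93 ± 0.10 in normoxia (adjusted p = 0.000104). Fbxo17 lies 1.04 Mb from Map3k10 on chromosome 7 and is the only member within 5 Mb of either targeted gene, of 7 members on that chromosome. Its genotype difference and its position beside a targeted gene cannot be told apart by this design.

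Klhl13, which acts on Aurora B with KLHL9 in human cells, was also lower in the double knockout at both oxygen levels. It had 3.57, 3.38 and 3.76 FPKM in the double knockout and 5.68, 6.03 and 5.19 FPKM in wild type in hypoxia, and 4.27, 3.97 and 3.63 FPKM in the double knockout and 5.76, 5.69 and 6.25 FPKM in wild type in normoxia. The groups did not overlap (-0.54 ± 0.07 and -0.48 ± 0.07, limma adjusted p = 0.000401 and 0.00132), but with its main transcript alone neither passed (adjusted p = 0.0836 and 0.126). Fbxo32 was higher in the double knockout at both oxygen levels, by 0.40 ± 0.05 in hypoxia and 0.33 ± 0.05 in normoxia (adjusted p = 0.000238 and 0.00123), with the library values given above. Kctd12b was higher by 0.54 ± 0.04 and 0.16 ± 0.04 (adjusted p = 3.09e-06 and 0.0171). These comparisons at the 2 oxygen levels share no library.

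**Figure D5:**
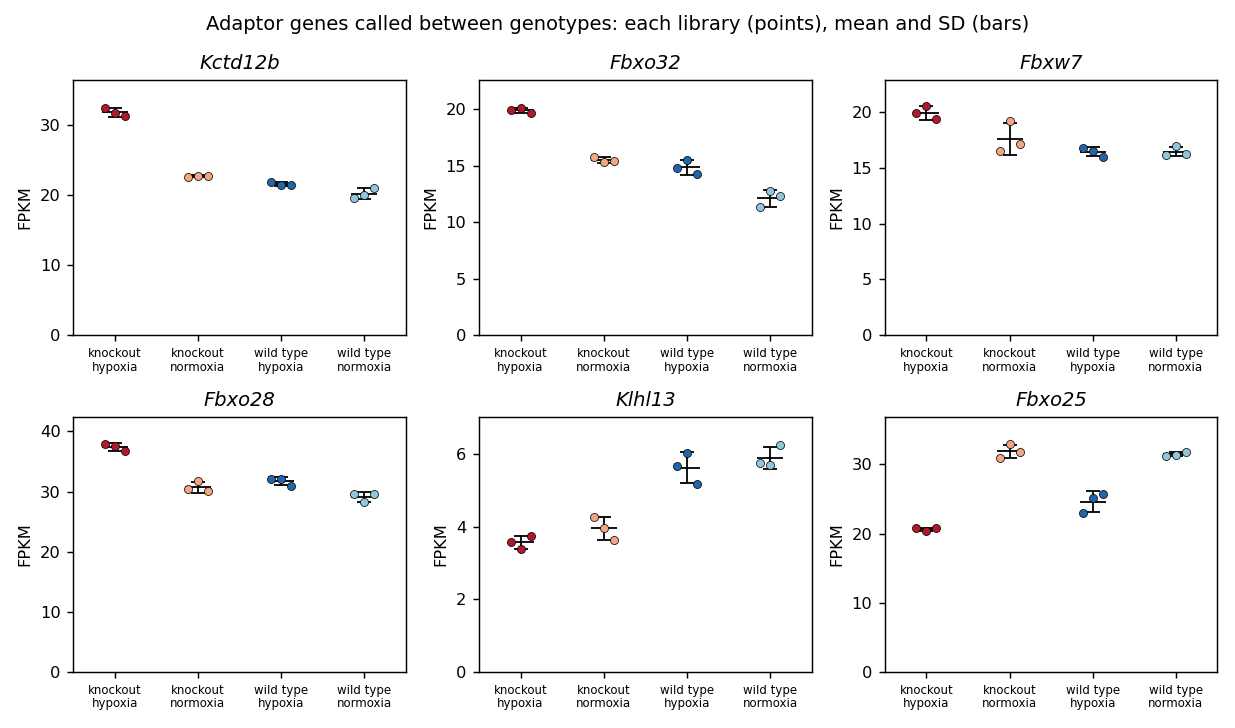
FPKM of 6 members called between genotypes in each library (points), with the group mean and SD (bars, n = 3), from left to right in double knockout hypoxia, double knockout normoxia, wild type hypoxia and wild type normoxia. Kctd12b and Fbxo32 are higher and Klhl13 lower in the double knockout at both oxygen levels, and Fbxw7, Fbxo28 and Fbxo25 differ between genotypes in hypoxia by the test.

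Other members differed by the test at one oxygen level. In hypoxia the double knockout had more Fbxo28 (38.0, 37.6 and 36.7 FPKM, against 32.0, 32.1 and 31.0 FPKM in wild type), Fbxw7 (20.0, 20.6 and 19.4 FPKM, against 16.8, 16.6 and 16.0 FPKM), Klhl6 (0.25), a gene of B cells, and Klhl21 (0.24). The Fbxw7 difference did not pass with its main transcript alone (adjusted p = 0.26). Lower in the double knockout in hypoxia were Fbxo25 (-0.24 ± 0.04, adjusted p = 0.00329), Klhl36 (-0.42 ± 0.09, adjusted p = 0.00776) and Kctd12 (-0.29 ± 0.06, adjusted p = 0.00678). The other lower members in hypoxia were Asb8, Fbxl18, Fbxl20, Fbxo46, Klhl8 and Spsb2, with log2 fold changes of -0.14 to -0.32. In normoxia Fbxl15, which targets the ligase SMURF1, was higher (0.34, adjusted p = 0.0436), a call lost under 12 of 21 alternatives. Fbxo5, the inhibitor EMI1 of the anaphase-promoting complex, and Klhl5 were lower (-0.26 and -0.21, adjusted p = 0.0384 and 0.0206). The Fbxo5 call was lost under 9 of 22 alternatives. In hypoxia Fbxo5 averaged 10.7 ± 0.487 FPKM in the double knockout and 10.8 ± 0.837 FPKM in wild type.

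Of 101 members placed in GENCODE M21 (GRCm38), 15 overlap a tested gene on the opposite strand. Among those named above these include Spsb2, Spsb3, Asb3, Fbxl12, Fbxl15, Fbxl22, Fbxw7 and Kctd18. For these, reads of the partner cannot be told apart without strand. Fbxl22 overlaps Herc1 by 317 bases, and Herc1 had log2 fold changes of 0.09 in the double knockout and 0.03 in wild type. Kctd18 overlaps Sgol2a by 22986 bases, and Sgol2a fell in both genotypes (-0.15 and -0.32), as Kctd18 did. Some close neighbours without overlap also fell in both, among them Tradd, 39 bases from Fbxl8 (-0.66 and -0.41), and Wdr53, 69 bases from Fbxo45 (-0.61 and -0.31), while Mrps12, 1497 bases from Fbxo17, fell (-0.48 and -0.22) where Fbxo17 rose. These neighbours were chosen after their values were seen.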

How the data were processed

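RNA of primary mouse lung endothelial cells was sequenced from 12 libraries, made with an NEBNext Ultra kit, per the labels' protocols. The authors deposited FPKM values for 52655 transcripts of 23422 gene identifiers, and TopHat2 is named in the submitters' processing notes. Its version, like the genome build, annotation, strand setting and FPKM tool, was not given in the sources used here. FPKM was summed per gene. Genes averaging 1 FPKM or more over the libraries were tested with limma 3.58.1 in R 4.3.3 on log2(FPKM + 1), with 1 coefficient per group, a variance trend, 8 residual degrees of freedom and Benjamini-Hochberg adjustment over 11378 genes at 0.05, checked on simulated data. The members, gene lists and naming rule were chosen with earlier results of these data known.

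Depth was estimated from the step between low values of 10242 genes with a single transcript, where 86.6% to 91.2% of low values per library lay within 0.1 of a whole fragment. Values near 1 FPKM therefore rest on few fragments for short transcripts. Genes named in each hypoxia comparison were up to 3 called members per family and direction by adjusted p, all SPSB and SOCS members and the most abundant member per family, 1 of which is not reported here. In genotype comparisons they were up to 5 per direction, and in each pathway list up to 2 per direction; other genes named were chosen after their values were seen. Positions are from GENCODE M21 (GRCm38) through the transcript identifiers, 95.2% of which matched, and promoters from the RefSeq table (GRCm38.p6). Alternatives were another pseudocount (0.1), filter (none, or a mean of at least 5 FPKM), scaling, sample set, replicate block, variance model, transcript choice and each library left out, and, chosen after seeing the data, removal of GC and length trends.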

Additional observations from a re-analysis of the deposited data

Results flagged for a closer look

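Kctd12b was the 1 adaptor gene whose response to hypoxia differed between the genotypes by a test of the difference itself. The log2 response was 0.47 in the double knockout and 0.09 in wild type, a difference of 0.38 ± 0.05 (SE, limma adjusted p = 0.0347), with all 3 double knockout hypoxia libraries above the other 9. The adjusted p ran from 0.0154 to 0.121 over the 21 alternatives and missed the threshold in 10 of them, in each with a positive difference. Summed leukocyte, smooth muscle and fibroblast markers were higher, and summed lymphatic markers lower, in the double knockout at both oxygen levels. Most of the leukocyte sum was Lyz2, while Cd68 did not pass, and of the smooth muscle markers Acta2 alone passed the floor. The part of these sums in the Kctd12b difference was not tested.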

How the results depend on the processing

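On leaving out 1 library at a time, the members called in the double knockout under hypoxia numbered 14 to 18 higher and 33 to 39 lower, and in wild type 8 to 11 higher and 11 to 22 lower. Between genotypes they numbered 4 to 7 higher and 5 to 11 lower in hypoxia, and 1 to 3 higher and 2 to 5 lower in normoxia. The difference of responses gave 0 to 1 higher and 0 to 1 lower. With the libraries of the comparison alone, 13 members were lower in wild type hypoxia, 6 were lower between genotypes in hypoxia, and 1 was higher and 2 lower between genotypes in normoxia. Members lower between genotypes in hypoxia numbered 7 without a filter, 7 after quantile normalization and 7 with main transcripts alone, and members lower in normoxia numbered 2 at a mean of at least 5 FPKM. The difference of responses was called for 0 members with the replicate block and for 0 with main transcripts alone. The cause of these changes was not tested.

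Whether same-numbered libraries of different groups shared more than a number cannot be told from these data. The correlations of their deviations from the group means ran from -0.0842 to 0.167, with 1 of 18 over 0.1. Of the 12 libraries 5 correlated best with their own number. With the replicate number as a block, 16 members rose and 38 fell in the double knockout and 10 rose and 21 fell in wild type, and between genotypes 7 were higher and 8 lower in hypoxia and 2 higher and 3 lower in normoxia. With GC and length trends removed, 19 rose and 37 fell in the double knockout and 13 rose and 21 fell in wild type.

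Calls of single members that were lost under 3 to 6 of 22 alternatives were those of Fbxw7 (6) and Fbxw8 (4) in double knockout hypoxia, Klhl2 (5) in wild type hypoxia, Klhl6 (3) between genotypes in hypoxia, and Klhl5 (5) and Kctd12b (4) between genotypes in normoxia. By limma's adjusted p, calls were gained by Asb3 in the double knockout with the libraries of the comparison alone (0.0198) and without wild type normoxia library 1 (0.0329), and by Socs7 there after quantile normalization (0.0430). In wild type Asb3 (0.0128) and Socs2 (0.0372) gained a call without normoxia library 1, and Socs6 (0.00796) without hypoxia library 3. A sign turned in 19 cases over 11 log2 fold changes, none of them called in its own comparison (Asb4 and Spsb3 turned in wild type and were called in the double knockout), and the cause was not tested. After quantile normalization the double knockout gave -0.0488 for Kctd10 and 0.0350 for Spsb1, and wild type gave -0.0157 for Kctd10 and -0.0382 for Klhl4. With main transcripts alone the double knockout gave -0.00678 for Kctd10, and wild type gave -0.0288 for Asb4, 0.0346 for Fbxo6, -0.00828 for Klhl4 and -0.0446 for Spsb1. On leaving out libraries, the double knockout values ran from -0.105 to 8.28e-05 for Socs3 and -0.134 to 0.0848 for Spsb1. The wild type values ran from -0.0284 to 0.0411 for Klhl4, -0.0979 to 0.0168 for Socs3, -0.00997 to 0.115 for Socs5, -0.108 to 0.133 for Spsb1 and -0.108 to 0.0249 for Spsb3. Genes near 1 FPKM are limited by depth, and the pseudocount understates their changes.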

Other observations

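Of the 63 family genes below the 1 FPKM floor, 4 were called in the double knockout under hypoxia and 1 in wild type when no filter was applied (limma, adjusted p under 0.05). The 11 genes at 0 in every library were not tested. With no filter, 10.2% of all genes tested were called higher and 9.88% lower in the double knockout, and 4.75% and 4.2% in wild type. These counts are therefore no result about the family genes as a group. Kctd1, a BTB protein known as a partner of the transcription factor AP-2, had 0.378, 0.338 and 0.327 FPKM in hypoxia, against 0.733, 0.673 and 0.6 FPKM in normoxia, in the double knockout (log2 fold change -0.31, adjusted p = 0.00412). Klhl23 was lower in both genotypes, by log2 fold changes of -0.21 in the double knockout and -0.25 in wild type. Fbxo2, of the same glycoprotein-binding group as Fbxo17 and Fbxo6, and Fbxw10 were higher in the double knockout, with log2 fold changes of 0.37 and 0.32. Their levels were under 1.3 FPKM in every library, where few fragments stand behind each value.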
